A study of Mus musculus with 12 samples.

Results

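The genes described here are 9 members of the homologous recombination pathway of DNA repair: Rbbp8, Brca1, Palb2, Brca2, Rad51c, Rad51d, Xrcc2, Xrcc3 and Rad54l. They were taken by gene symbol, and each had a row in all 12 libraries, so that they make up 9 of 23354 genes shared by the libraries. The libraries hold mRNA of stable J1 mouse embryonic stem cell lines, grown on inactivated fibroblast feeder cells in serum with leukemia inhibitory factor. One arm overexpressed histone H3.1, either wild-type (H3.1WT, the control line) or as H3.1K9M or H3.1K36M, where the named lysine is replaced by methionine. In the knockdown arm the cells carried the hairpin shSuv39h1 or shSuv39h2, named for the H3K9 methyltransferase genes Suv39h1 and Suv39h2, or shNC, taken as the control hairpin. Each group had 2 libraries and no untreated J1 line was analysed here. The promoters that drove the histones and the hairpins, and whether a line was 1 clone, were not found in the sources used here. Nor is it said if the 2 libraries of a group came from separate cultures, so the p-values measure the spread between libraries, which may be technical.

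Homologous recombination repairs a DNA double-strand break by copying the intact sister chromatid, and it acts mainly in the S and G2 phases. The ends are first resected to single strands, a step promoted by Rbbp8 (also called CtIP) and Brca1. Palb2 links Brca1 to Brca2, which acts as a mediator of filament assembly on the single strand, and Rad51c, Rad51d, Xrcc2 and Xrcc3, which are paralogs of each other, stabilise the filament. Rad54l, a DNA translocase, then helps the filament to invade the sister duplex. Embryonic stem cells divide fast with a short G1 phase and are known to express this pathway at a high level. The title of the series links H3K36me3 to single nucleotide variation. The comparisons here ask whether the mRNA of these repair genes differed between the lines.

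On GRCm38 with GENCODE M21, Rad51c (chr11:87376645-87404954), Rad51d (chr11:82876434-82890614) and Brca1 (chr11:101488764-101551955) lie on chromosome 11, all on the minus strand. Brca2 (chr5:150522630-150570329, plus strand) and Xrcc2 (chr5:25689812-25705825, minus strand) share chromosome 5. Palb2 (chr7:122107262-122132985), Xrcc3 (chr12:111803192-111813873) and Rad54l (chr4:116094264-116123690) are on minus strands, and Rbbp8 is placed where its values are given. For 5 of the 9 members another protein-coding gene starts upstream on the opposite strand, between 56 bases (Dctn5 beside Palb2) and 297 bases (Zfyve21 beside Xrcc3) away. The stretches between such starts are shown for Palb2, Brca1 and Rad51c, and for Rad54l, which passed the test in a comparison. Palb2, Brca1 and Rad51c had the Pearson r with their neighbours that was largest in size, negative for Palb2 (described further on, with its limits). Brca2 has no such neighbour, and the bases before its start are shown for a match to the letters of an E2F site. Each stretch runs 5′ to 3′ on the strand of the member and ends just before its start, except that of Brca2, which ends at the RefSeq start, a few bases before the GENCODE gene. They were read from the RefSeq promoter table (GRCm38.p6), at chr7:122132986-122133040, chr11:101551956-101552148, chr11:87404955-87405064 and chr4:116123691-116123839 on the minus strand and chr5:150522371-150522620 on the plus strand. Capitals mark matches to CCAAT or to the E2F letters, on either strand.
Palb2: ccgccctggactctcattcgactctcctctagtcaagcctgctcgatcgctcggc
Brca1: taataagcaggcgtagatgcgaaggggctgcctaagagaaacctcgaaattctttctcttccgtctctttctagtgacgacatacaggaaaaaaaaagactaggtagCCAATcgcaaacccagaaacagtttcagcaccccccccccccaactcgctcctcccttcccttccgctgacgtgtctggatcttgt
Rad51c: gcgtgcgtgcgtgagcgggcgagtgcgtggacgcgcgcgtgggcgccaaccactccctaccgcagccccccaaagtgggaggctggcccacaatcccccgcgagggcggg
Rad54l: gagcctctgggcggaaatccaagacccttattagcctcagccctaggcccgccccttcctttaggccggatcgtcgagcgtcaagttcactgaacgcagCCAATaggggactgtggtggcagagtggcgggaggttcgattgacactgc
Brca2: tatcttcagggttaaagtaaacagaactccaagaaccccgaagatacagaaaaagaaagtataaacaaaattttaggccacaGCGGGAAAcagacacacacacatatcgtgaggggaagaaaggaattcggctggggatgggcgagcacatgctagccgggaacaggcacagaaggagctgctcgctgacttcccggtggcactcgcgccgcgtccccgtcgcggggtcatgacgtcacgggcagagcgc

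RefSeq windows of 300 bases (250 before to 50 after the start) were found for 6 members: Rad51c, Brca1, Brca2, Palb2, Xrcc3 and Rad54l. The E2F letters searched were TTTGGCGC, TTTCCCGC, TTTGCCGC and TTTCGCGC on both strands, and the windows of Brca2 and Rad51c held a match, that of Rad51c lying outside the stretch shown. Of the 12375 windows of tested genes, 3.94% held such a match. The letters CCAAT, on either strand, were in the windows of Brca1, Palb2, Rad54l and Xrcc3 (that of Palb2 outside the stretch shown) and in 37.8% of the windows of tested genes. The letters TTTGAA, from the cell cycle homology region of G2 genes, were in none of the 6 and in 11.5% of the windows of tested genes. The members' windows held 13 to 29 CpG dinucleotides and 53.7% to 64.0% G and C, where the medians over tested genes were 20 and 61.0%. A match describes the letters in the window and is not evidence of a bound site.

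Values are FPKM, fragments per kilobase of transcript scaled to the size of the library, so levels of different genes can be compared per length. Depth is approximate: for a transcript of 2 kb, 1 FPKM came to 42.6 to 56.3 fragments. The lowest member value, Xrcc2 in shNC replicate 1, came to about 237 fragments. That count takes its longest transcript (3247 bases) and would be lower for a shorter one. Embryonic stem cell markers had a mean log2(FPKM + 1) of 6.93 to 7.47 in every library, and fibroblast feeder markers were also present, at 3.08 to 4.54. The hairpin targets were lower in their own lines: Suv39h1 was at 5.01 ± 0.136 FPKM in shSuv39h1 and 8.05 ± 0.743 in shNC (SD, n = 2), which is 62.2% of the control (limma, Benjamini-Hochberg adjusted p = 0.0877). Suv39h2 was at 1.68 ± 0.104 FPKM in shSuv39h2 and 4.79 ± 0.0106 in shNC (SD, n = 2), 35.1% of the control (limma adjusted p = 0.000304). H3.1K9M replicate 1 stood apart: the SD of log2 differences between the H3.1K9M libraries was 0.41, against 0.22 to 0.35 in the other groups. It had the highest feeder marker mean of the 12 libraries (4.54) and the lowest embryonic stem cell marker mean (6.93). In bulk RNA, fewer cells of a type and less RNA per cell cannot be told apart.

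All 9 genes were expressed in every library, and each varied less than 1.7-fold over the 12 libraries. Brca1 had the highest level, with a mean of 23.5 FPKM (18.4 to 26.4), higher than 75.6% of tested genes. Rad54l followed at 16.3 FPKM (12.5 to 20.8), then Brca2 at 10.0 (7.52 to 11.4), Xrcc3 at 9.20 (7.92 to 10.6), Palb2 at 8.54 (6.35 to 9.87) and Rad51c at 8.13 (5.97 to 9.24). Rbbp8 at 6.06 FPKM (5.13 to 7.39), Rad51d at 4.35 (3.64 to 5.05) and Xrcc2 at 4.34 (3.42 to 5.25) had the lowest levels. The ranges of Brca2, Xrcc3, Palb2 and Rad51c overlapped, as did those of Rad51d and Xrcc2, while Brca1 was above Rad54l in 12 of 12 libraries. The ratio of highest to lowest library ran from 1.34 for Xrcc3 to 1.66 for Rad54l. H3.1K9M replicate 1 was the lowest of the 12 libraries for 4 members (Rbbp8, Brca1, Palb2 and Rad51c), and shNC replicate 1 for 3 (Brca2, Xrcc2 and Rad54l).

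**Figure D1:**
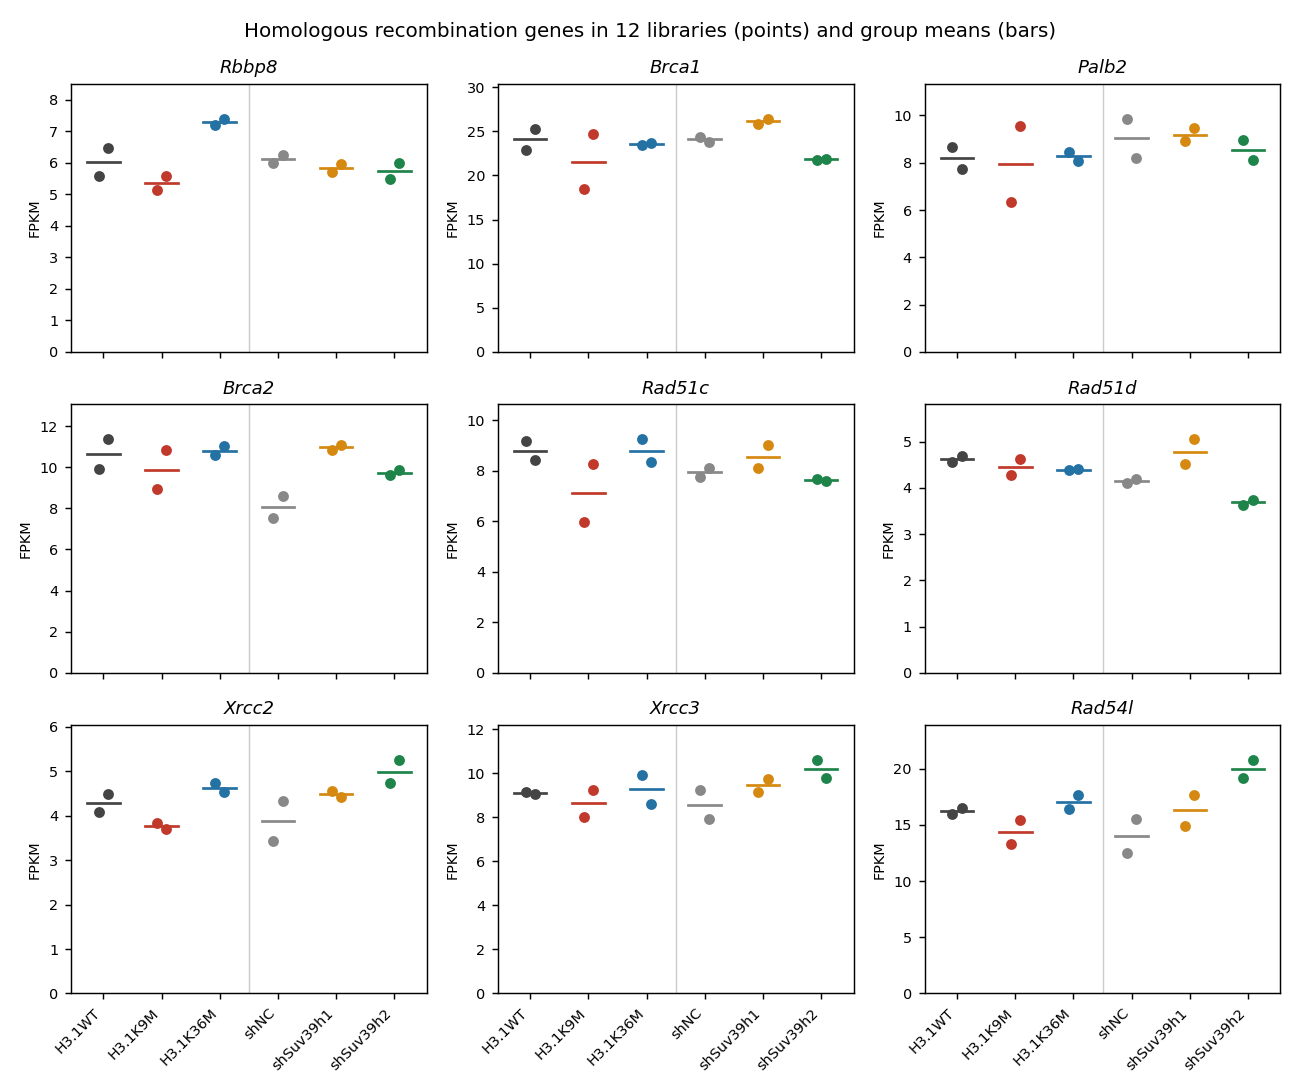
FPKM (vertical axes, from 0) of the 9 homologous recombination genes in the 6 groups; points are the 2 libraries of a group and bars their mean. Rad54l is highest in shSuv39h2 (19.2 and 20.8 FPKM), Rbbp8 is highest in H3.1K36M (7.20 and 7.39 FPKM), and the libraries of H3.1K9M lie far apart for Palb2, Brca1 and Rad51c.

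Over 6 comparisons of lines, 54 tests of a member were made and 2 passed a Benjamini-Hochberg adjusted p of 0.05 over the 13109 tested genes (limma on log2(FPKM + 1)). These were Rad54l, higher in shSuv39h2 than in shNC, where 10.0% of tested genes passed, and Rbbp8, higher in H3.1K36M than in H3.1K9M, where 8.24% passed. The other 4 comparisons had no member past the threshold, with 0.313% of tested genes passing in H3.1K9M against H3.1WT, 4.84% in H3.1K36M against H3.1WT, 0.145% in shSuv39h1 against shNC and 6.56% in shSuv39h1 against shSuv39h2. H3.1K9M and H3.1K36M share the H3.1WT libraries, and the 2 hairpins share shNC, so their comparisons with the control are not independent of each other.

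**Figure D2:**
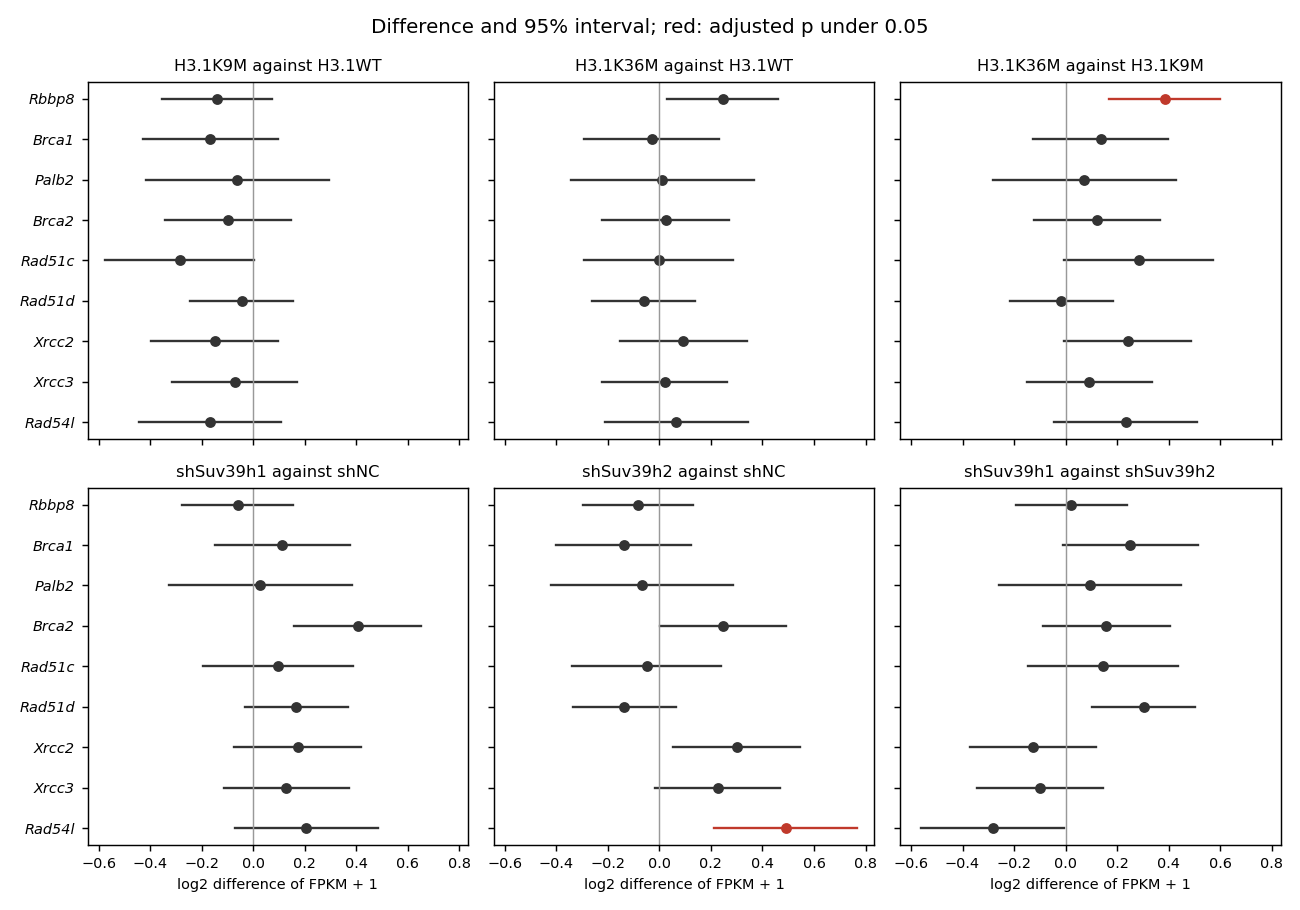
Difference in log2(FPKM + 1) between 2 lines (points, horizontal axes) with its 95% confidence interval from limma (lines) for the 9 genes in 6 comparisons. Red marks an adjusted p under 0.05: Rbbp8 in H3.1K36M against H3.1K9M (0.38) and Rad54l in shSuv39h2 against shNC (0.49).

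Rbbp8 (chr18:11633276-11745221, plus strand, GRCm38) and Brca1 act at the start of the pathway, in end resection. Rbbp8 was at 5.57 and 6.46 FPKM in H3.1WT, 5.13 and 5.59 in H3.1K9M and 7.20 and 7.39 in H3.1K36M. In the knockdown arm it was at 5.999 and 6.24 FPKM in shNC, 5.70 and 5.95 in shSuv39h1 and 5.47 and 5.98 in shSuv39h2. Both H3.1K36M libraries were thus higher than the other 10, and the groups of the knockdown arm lay within a narrow range. Against H3.1K9M, Rbbp8 rose 1.36-fold in H3.1K36M, a log2 difference of 0.38 (SE 0.0959, 95% interval 0.17 to 0.60, limma adjusted p = 0.0390). Against H3.1WT the log2 difference in H3.1K36M was 0.24 (95% interval 0.03 to 0.46, limma adjusted p = 0.187). Rbbp8 shares 402 exonic bases with the antisense gene AC090479.2 on the opposite strand, which has no row in the libraries. The sources used here do not give whether reads were assigned by strand, and the part of shared reads in the Rbbp8 value was not tested. Brca1, a ubiquitin ligase subunit that also works with Palb2 further on, was at 22.8 and 25.3 FPKM in H3.1WT, 18.4 and 24.6 in H3.1K9M and 23.4 and 23.6 in H3.1K36M. It was at 24.4 and 23.8 FPKM in shNC, 25.8 and 26.4 in shSuv39h1 and 21.7 and 21.9 in shSuv39h2. In the knockdown arm the 3 groups of Brca1 did not overlap, with shSuv39h1 highest and shSuv39h2 lowest. Of tested genes, 30.0% lay wholly higher in shSuv39h1 than in shSuv39h2, and the share with all 3 groups apart was not counted. The log2 difference of Brca1 between shSuv39h1 and shSuv39h2 was 0.25 (95% interval -0.01 to 0.51, limma adjusted p = 0.255), and it did not pass in any of the 6 comparisons.

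Palb2 and Brca2 form the mediator step of the pathway. Palb2 was at 8.69 and 7.73 FPKM in H3.1WT, 6.35 and 9.56 in H3.1K9M and 8.48 and 8.06 in H3.1K36M. It was at 9.87 and 8.20 FPKM in shNC, 8.91 and 9.47 in shSuv39h1 and 8.98 and 8.12 in shSuv39h2. Palb2 libraries of one line overlapped those of every line they were compared with, and its SE was the widest of the 9 members (0.159). Brca2 was at 9.91 and 11.4 FPKM in H3.1WT, 8.93 and 10.9 in H3.1K9M and 10.6 and 11.04 in H3.1K36M. It was at 7.52 and 8.60 FPKM in shNC, 10.9 and 11.1 in shSuv39h1 and 9.61 and 9.87 in shSuv39h2. The shNC libraries were the lowest of the 12 for Brca2. Against shNC the log2 difference of Brca2 was 0.41 in shSuv39h1 (95% interval 0.16 to 0.65, limma adjusted p = 0.235) and 0.25 in shSuv39h2 (95% interval 0.00 to 0.49, limma adjusted p = 0.189).

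The 4 paralogs Rad51c, Rad51d, Xrcc2 and Xrcc3 showed no difference past the threshold. Rad51c, shared by both paralog complexes, was at 9.15 and 8.43 FPKM in H3.1WT, 5.97 and 8.25 in H3.1K9M and 9.24 and 8.33 in H3.1K36M. It was at 7.75 and 8.10 FPKM in shNC, 8.09 and 9.001 in shSuv39h1 and 7.65 and 7.59 in shSuv39h2. Its H3.1K9M libraries were below those of the other lines of that arm, with a log2 difference from H3.1WT of -0.29 (95% interval -0.58 to 0.00, limma adjusted p = 0.453). Rad51d, in the complex with Rad51b, Rad51c and Xrcc2, was at 4.56 and 4.69 FPKM in H3.1WT, 4.28 and 4.63 in H3.1K9M and 4.38 and 4.40 in H3.1K36M. It was at 4.12 and 4.19 FPKM in shNC, 4.52 and 5.05 in shSuv39h1 and 3.64 and 3.74 in shSuv39h2. The groups of the knockdown arm did not overlap for Rad51d, in the same order as for Brca1. Of tested genes, 30.0% lay wholly higher in shSuv39h1 than in shSuv39h2, and the share with all groups of the arm apart was not counted. The log2 difference of Rad51d between shSuv39h1 and shSuv39h2 was 0.30 (95% interval 0.10 to 0.50, limma adjusted p = 0.0780).

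Xrcc2 and Xrcc3 are the paralogs of the separate complexes, with Rad51d and with Rad51c. Xrcc2 was at 4.09 and 4.49 FPKM in H3.1WT, 3.84 and 3.69 in H3.1K9M and 4.73 and 4.54 in H3.1K36M. These 3 groups did not overlap. Of tested genes, 31.5% lay wholly higher in H3.1K36M than in H3.1K9M, and the share with all 3 groups apart was not counted. Xrcc2 was at 3.42 and 4.34 FPKM in shNC, 4.54 and 4.41 in shSuv39h1 and 4.73 and 5.25 in shSuv39h2. Its log2 difference was 0.24 for H3.1K36M against H3.1K9M (95% interval 0.00 to 0.49, limma adjusted p = 0.223) and 0.30 for shSuv39h2 against shNC (95% interval 0.05 to 0.55, limma adjusted p = 0.119). Xrcc3 was at 9.13 and 9.06 FPKM in H3.1WT, 8.03 and 9.22 in H3.1K9M and 9.93 and 8.59 in H3.1K36M, and these groups overlapped. It was at 9.23 and 7.92 FPKM in shNC, 9.14 and 9.74 in shSuv39h1 and 10.6 and 9.78 in shSuv39h2. Both shSuv39h2 libraries were above the other 4 of the arm for Xrcc3, and the log2 difference from shNC was 0.23 (95% interval -0.02 to 0.47, limma adjusted p = 0.223).

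Rad54l, which acts at strand invasion, was at 15.9 and 16.5 FPKM in H3.1WT, 13.3 and 15.5 in H3.1K9M and 16.4 and 17.6 in H3.1K36M. It was at 12.5 and 15.5 FPKM in shNC, 14.9 and 17.7 in shSuv39h1 and 19.2 and 20.8 in shSuv39h2. The shSuv39h2 libraries were the highest of the 12. Against shNC (14.0 ± 2.14 FPKM, SD, n = 2) Rad54l rose 1.43-fold in shSuv39h2 (19.98 ± 1.11 FPKM), a log2 difference of 0.49 (SE 0.124, 95% interval 0.21 to 0.77, limma adjusted p = 0.0360). Between shSuv39h1 and shSuv39h2 the log2 difference of Rad54l was -0.28 (95% interval -0.56 to -0.01, limma adjusted p = 0.220). Rad54l shares 1184 exonic bases with Lrrc41 on the opposite strand, and the sources used here do not give whether reads were assigned by strand. Lrrc41 was at 15.7 and 14.3 FPKM in shSuv39h2 and 12.7 and 12.9 in shNC (log2 difference 0.21, limma adjusted p = 0.228), and the part of shared reads in the Rad54l value was not tested. The Rad54l call was kept in 5 of 11 alternative analyses. It was lost with no filter (limma adjusted p = 0.0528), quantile scaling (0.0604) and the arm alone (0.0815). It was also lost without shNC replicate 1 (log2 difference 0.34), without shSuv39h2 replicate 1 (0.54) and without shSuv39h2 replicate 2 (0.44).

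In H3.1K9M against H3.1WT, all 9 members had lower means and none passed (none at an unadjusted p of 0.05 either, where 11.2% of tested genes did), with log2 differences from -0.29 (Rad51c) to -0.04 (Rad51d). Their median was -0.14, where the median over all tested genes was -0.01. Of the 9, 3 had libraries that lay wholly below H3.1WT (Rad51c, Xrcc2 and Rad54l), a pattern that 20.6% of tested genes showed. Without H3.1K9M replicate 1 the difference turned positive for 5 members (Rad51d 0.0005, Brca1 0.03, Brca2 0.03, Palb2 0.20 and Xrcc3 0.02). Without H3.1K9M replicate 2, Rad51c (log2 difference -0.49, limma adjusted p = 0.0416) and Brca1 (-0.37, limma adjusted p = 0.0452) passed, so the call depended on which library stood for the line. Feeder markers had higher means in H3.1K9M in 19 of 19 tested, 5 of them with libraries wholly above H3.1WT. Their list means were 4.54 and 3.71 in H3.1K9M against 3.22 and 3.85 in H3.1WT, and their summed level was 1177 and 583 against 370 and 646 FPKM. Their part in the result was not tested. Lower means were not particular to the pathway. They were found for 13 of 17 end joining genes (median -0.15), 19 of 24 DNA replication and S phase genes (-0.08) and 15 of 17 G2 and mitosis genes (-0.13). So it was for 10 of 12 other Fanconi anaemia genes (-0.11) and 13 of 15 embryonic stem cell markers (-0.17). Of all tested genes, 47.6% had higher means. Of 43 other homologous recombination genes none passed at an adjusted p and 6 did at an unadjusted p of 0.05, and 33 had lower means (median -0.12). The smallest p-values were for Helq, a helicase, at 5.35 against 6.83 FPKM (limma adjusted p = 0.240) and Brip1, a helicase partner of Brca1, at 3.92 against 5.34 FPKM (limma adjusted p = 0.255).

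In H3.1K36M against H3.1WT, member levels were close to those of the control, with log2 differences from -0.06 (Rad51d) to 0.24 (Rbbp8) and a median of 0.02 (all tested genes 0.03). None passed, 1 had an unadjusted p under 0.05 (Rbbp8, where 20.8% of tested genes did), 6 had higher means and 3 lower, and quantile scaling left 2 with higher means. Rbbp8 and Xrcc2 lay wholly above H3.1WT, as did 38.2% of tested genes, and Rad51d lay wholly below it, as did 27.6%. The interval of Rad51c was -0.29 to 0.29 and that of Brca1 -0.29 to 0.23, and changes within these intervals could not be told from none. None of the 43 other homologous recombination genes passed (2 at an unadjusted p of 0.05), and the smallest p-values were for Brcc3, a deubiquitinase of the Brca1-A complex (10.3 against 12.9 FPKM, limma adjusted p = 0.134), and Eme1, a subunit of a junction nuclease (19.5 against 23.4 FPKM, limma adjusted p = 0.215). Feeder markers were higher in 19 of 19, with means of 4.25 in both H3.1K36M libraries, and 3 of them passed (Postn, Col6a2 and Col3a1). Differentiation markers moved the other way, with 8 of 10 tested lower past the threshold. The part of either list in the members' values was not tested.

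In H3.1K36M against H3.1K9M, 8 of 9 members had higher means, with a median log2 difference of 0.14 (all tested genes 0.03). Of all tested genes, 56.0% had higher means. So did 28 of 43 other homologous recombination genes, 12 of 17 end joining genes and 5 of 17 G2 and mitosis genes. Without H3.1K9M replicate 1, 5 members had higher means and their median was 0.003 (all tested genes 0.04). Rbbp8 passed, as given above, and was also the 1 member with an unadjusted p under 0.05, where 23.2% of tested genes had one. It lay wholly above H3.1K9M together with Rad51c, Xrcc2 and Rad54l, as did 31.5% of tested genes. The Rbbp8 call was lost without H3.1K36M replicate 1 (limma adjusted p = 0.193) or 2 (0.240) and without H3.1K9M replicate 1 (0.0841). Over all 11 alternative analyses its log2 difference ran from 0.33 to 0.44, and 4 of the 11 kept the call. Of the 43 other homologous recombination genes, Brip1 passed: it was at 6.20 and 6.43 FPKM in H3.1K36M and 3.44 and 4.40 in H3.1K9M, 1.61-fold higher (limma adjusted p = 0.0117, where 8.24% of tested genes passed). Brip1 passed in 8 of 11 alternative analyses and was lost without H3.1K36M replicate 1 (limma adjusted p = 0.0824) or 2 (0.112) and in the arm alone (0.0633). Feeder markers were mixed in this comparison (11 of 19 higher, median 0.03), while 6 of 15 embryonic stem cell markers rose, among them Nanog (376 against 123 FPKM, limma adjusted p = 0.000512) and Esrrb (154 against 94.2 FPKM, limma adjusted p = 0.0105). Differentiation markers were lower in 10 of 10 tested (median -0.91), and 7 of them passed: Krt8 (0.116-fold), Krt18 (0.171-fold), Cdx2, T, Hand1, Mixl1 and Eomes. The part of these lists in the Rbbp8 and Brip1 values was not tested.

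In shSuv39h1 against shNC, 8 of 9 members had higher means (7 under quantile or median-of-ratios scaling, where Palb2 turned to -0.02), and none passed. An unadjusted p under 0.05 was found for 1 member, Brca2, and for 10.6% of tested genes. The log2 differences ran from -0.06 (Rbbp8) to 0.41 (Brca2), with a median of 0.13 where all tested genes had 0.04. Libraries lay wholly above shNC for Brca1, Brca2, Rad51d and Xrcc2, as for 26.8% of tested genes, and wholly below for Rbbp8, as for 12.7%. Higher means were not particular to the pathway, and 61.3% of all tested genes had them. So did 14 of 17 end joining genes (median 0.16), 20 of 24 DNA replication and S phase genes (0.07) and 8 of 12 other Fanconi anaemia genes (0.16). Of 15 embryonic stem cell markers 14 were higher (0.16), and of 17 G2 and mitosis genes 8 (-0.01). Of the 43 other homologous recombination genes, 36 had higher means (median 0.12), none passed and 7 had an unadjusted p under 0.05. The smallest p-values were for Rpa3, a subunit of the single-strand binding protein (51.5 against 42.9 FPKM, limma adjusted p = 0.311), and Gen1, a junction resolvase (5.77 against 3.77 FPKM, limma adjusted p = 0.334). Feeder markers were lower in 19 of 19 (median -0.41), with means of 3.45 and 3.08 in shSuv39h1 and 3.42 and 3.84 in shNC, and their part in these values was not tested.

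In shSuv39h2 against shNC, the members did not move one way. Rad54l rose, Xrcc2, Brca2 and Xrcc3 had higher means, and Brca1 (-0.14), Rad51d (-0.14), Rbbp8 (-0.08), Palb2 (-0.07) and Rad51c (-0.05) had lower means. The median was -0.05 where all tested genes had 0.04. Libraries of 4 members lay wholly above shNC (29.5% of tested genes) and those of 4 wholly below (21.3%), with Palb2 the exception. An unadjusted p under 0.05 was found for 3 members (Rad54l, Xrcc2 and Brca2) and for 25.8% of tested genes. Of the 43 other homologous recombination genes, 5 rose and 1 fell, where 10.0% of tested genes passed in either direction. Mus81, the catalytic partner of Eme1, rose 1.70-fold, from 4.71 and 5.30 FPKM in shNC to 8.27 and 8.79 in shSuv39h2 (limma adjusted p = 0.00489). Babam1, of the Brca1-A complex, rose from 22.3 to 35.3 FPKM (limma adjusted p = 0.0175) and Rmi2, of the Blm dissolution complex, from 1.49 to 2.65 FPKM (limma adjusted p = 0.0199). Zswim7, a subunit of the Shu complex, fell from 47.4 and 51.2 FPKM to 32.6 and 36.2 (0.698-fold, limma adjusted p = 0.0205). The nuclease and helicase Dna2 and the helicase Rtel1 also rose. Mus81 passed in 11 of 11 alternative analyses, Babam1 in 8 of 11, Zswim7 in 7 of 11 and Rmi2 in 7 of 10.

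Other lists were set beside the members in shSuv39h2. Of 24 DNA replication and S phase genes, 22 had higher means (median 0.18) and 1 passed, the ribonucleotide reductase subunit Rrm2 (99.4 against 72.2 FPKM, limma adjusted p = 0.0208). Of 17 G2 and mitosis genes, 10 were higher (median 0.003) and Kif11 passed. Of 17 end joining genes, 2 rose (Poll and Xrcc1) and Dclre1c fell (7.48 against 10.3 FPKM, limma adjusted p = 0.0257). Dclre1c shares 357 exonic bases with Suv39h2, the target of the hairpin, on the opposite strand. Of 12 other Fanconi anaemia genes Fancf rose. Feeder markers were higher in 9 of 19, with Thy1 lower past the threshold. Of 15 embryonic stem cell markers, 13 had higher means (median 0.19) and 4 rose: Klf4 (1.45-fold), Klf2 (1.62-fold), Pou5f1 (1.35-fold) and Utf1 (1.31-fold). The mean of the list was 7.32 and 7.47 in shSuv39h2 against 7.12 and 7.19 in shNC. Of 10 differentiation markers tested, 7 had higher means and Gata4 rose 2.01-fold. The part of these lists in the Rad54l value was not tested.

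**Figure D3:**
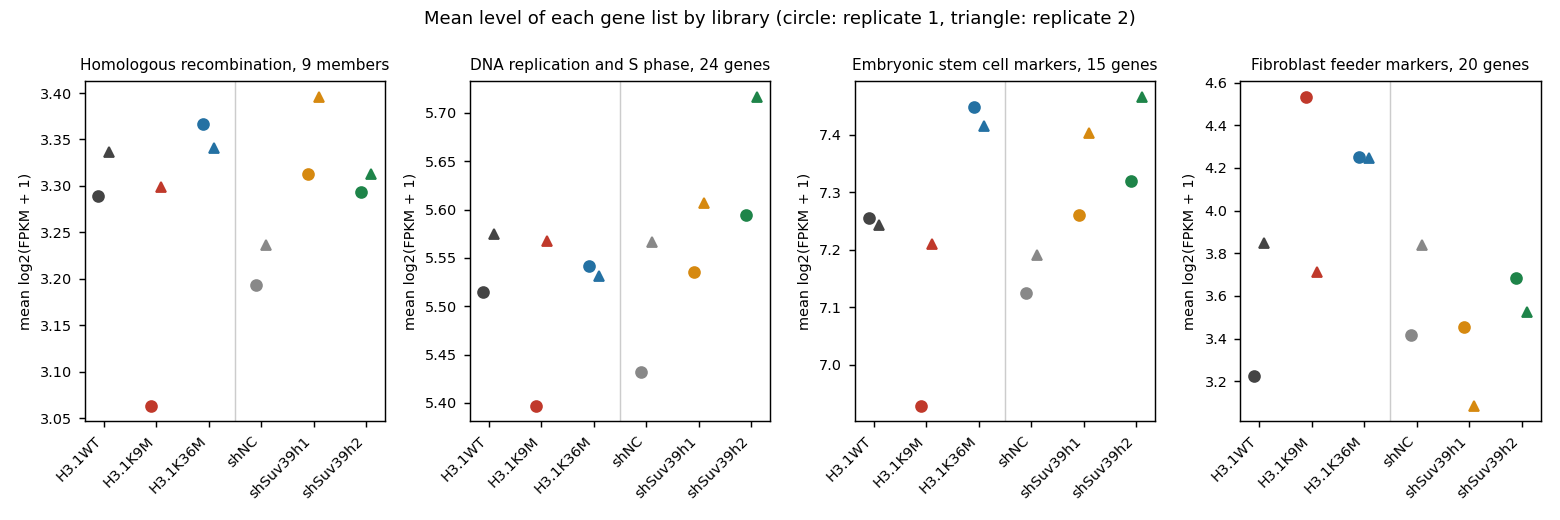
Mean log2(FPKM + 1) (vertical axes, which do not start at 0) of the 9 members, 24 DNA replication and S phase genes, 15 embryonic stem cell markers and 20 fibroblast feeder markers in each library. H3.1K9M replicate 1 is lowest in the first 3 panels and highest in feeder markers (4.54), and shNC replicate 1 is the lowest of the knockdown arm in the first 3.

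In shSuv39h1 against shSuv39h2, 6 members had higher means and 3 (Xrcc2, Xrcc3 and Rad54l) lower, with a median log2 difference of 0.09 (all tested genes -0.001). None passed, and the unadjusted p was under 0.05 for 2, Rad51d and Rad54l, and for 21.7% of tested genes. Libraries lay wholly above shSuv39h2 for Rad51c, Rad51d, Brca1 and Brca2 (30.0% of tested genes) and wholly below for Xrcc2, Xrcc3 and Rad54l (28.7%). Rbbp8 and Palb2 overlapped, with Rbbp8 at 0.02 and at -0.003 under median-of-ratios scaling. Of the 43 other homologous recombination genes 3 passed, where 6.56% of tested genes did. Zswim7 was 1.56-fold higher in shSuv39h1 (53.8 and 53.6 against 32.6 and 36.2 FPKM, limma adjusted p = 0.0143), and Brip1 was 1.63-fold higher (5.49 and 5.77 against 3.59 and 3.31 FPKM, limma adjusted p = 0.0168). Mus81 was lower, at 5.48 and 5.56 against 8.27 and 8.79 FPKM (limma adjusted p = 0.0170). Zswim7 passed in 8 of 11 alternative analyses and Brip1 and Mus81 in 7 of 11 each. Every loss came from leaving out 1 library: Brip1 and Mus81 were lost without any of the 4, and Zswim7 without 3, the exception being shSuv39h2 replicate 2. Their log2 differences without a library ran from 0.55 to 0.70 (Zswim7), 0.53 to 0.62 (Brip1) and -0.59 to -0.51 (Mus81).

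The H3.1WT and shNC control lines were set side by side without a test, because the sources used here do not give whether the arms were scaled together. Brca2 was at 10.6 FPKM in H3.1WT and 8.06 in shNC, and Rad54l at 16.2 and 14.0. Palb2 was at 8.21 and 9.03 FPKM, and Brca1 at 24.1 in both.

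Over both arms together, the members followed each other only in part. Of 36 pairs of members, 30 had a positive Pearson r over the 12 libraries (log2(FPKM + 1) centred on the mean of the arm), with a median of 0.39 and a range of -0.29 to 0.84. The share of positive r among pairs of other genes was not counted. Rad51c was closest to the mean of the other 8 (r = 0.79) and Rad51d farthest (r = 0.25). These are descriptions over libraries of 6 lines, and the lowest point of the mean profile was H3.1K9M replicate 1 (-0.22). Among 8529 other genes with a mean of at least 5 FPKM, those most like the members' mean profile were Farsb (r = 0.963), Cfdp1 (0.962), Zswim3 (0.950), Xrcc6 (0.948) and Edc3 (0.943). Xrcc6 encodes a subunit of the Ku complex of end joining, and Farsb a subunit of phenylalanyl-tRNA synthetase.

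Among the 5 members with a neighbour that starts upstream on the opposite strand, the relation of the pair was not the same. Palb2 and Dctn5, a dynactin subunit gene, ran opposite to each other: Dctn5 was at 19.2 and 14.1 FPKM in H3.1K9M, where Palb2 was at 6.35 and 9.56, and at 11.6 and 15.2 in shNC, where Palb2 was at 9.87 and 8.20. In each of the 6 groups the library with more Palb2 had less Dctn5. Over the 12 libraries, on log2 values centred on the arm, Pearson r was -0.85 (permutation p = 0.000180, adjusted over 5 pairs 0.000900) and Spearman rho -0.87 (permutation p = 0.000370, adjusted 0.00185). These p-values are too small, because the libraries come in pairs from 6 lines. The neighbours were also chosen after values were seen, which the adjustment over 5 pairs does not cover. Without the 2 libraries farthest from the median of Palb2, which were those of H3.1K9M, r was -0.87. It was -0.89 in the overexpression arm and -0.92 in the knockdown arm (6 libraries each). How many other genes had as strong an r with Palb2 was not counted. In H3.1WT, H3.1K9M, shNC and shSuv39h1 the library with less Palb2 had the higher feeder marker mean (4.54 in H3.1K9M replicate 1). In H3.1K36M and shSuv39h2 it had the lower mean. The part of feeder cells in the relation was not tested.

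Brca1 and Nbr1, an autophagy receptor gene, ran together, with r = 0.84 (permutation p = 0.00113, adjusted 0.00282) and rho = 0.59 (permutation p = 0.0484, adjusted 0.121). Without the 2 farthest libraries r was 0.67, and it was 0.85 and 0.84 in the arms. Rad51c and Tex14, an intercellular bridge gene of germ cells, had r = 0.81 (permutation p = 0.00495, adjusted 0.00825) and rho = 0.48 (permutation p = 0.117, adjusted 0.195), and r = 0.73 without the 2 farthest libraries, with 0.84 in the overexpression arm and 0.58 in the knockdown arm. Xrcc3 and Zfyve21 had r = 0.61 (permutation p = 0.0376, adjusted 0.0470) and rho = 0.43 (permutation p = 0.168, adjusted 0.210). Without the 2 farthest libraries (shNC replicate 2 and H3.1K9M replicate 1) r was -0.16, so that relation rested on them. In the overexpression arm r was 0.60 and in the knockdown arm 0.81, where each arm holds 1 of these libraries. Rad54l and Pomgnt1 had r = 0.30 (permutation p = 0.351), with -0.34 in the overexpression arm and 0.69 in the knockdown arm. The libraries come in pairs from 6 lines, so they are not 12 independent samples and these p-values are too small. None of the 5 neighbours passed the limma test in any of the 6 comparisons.

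**Figure D4:**
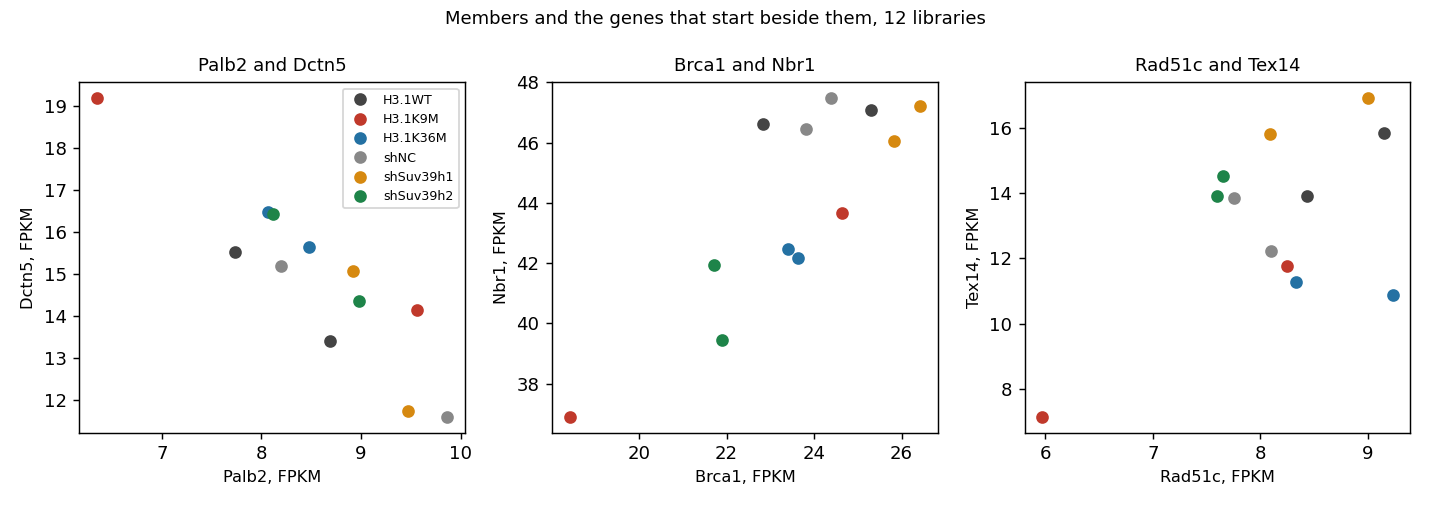
FPKM of a member (horizontal axes) and of the gene starting beside it (vertical axes), each point a library coloured by group. Palb2 and Dctn5 run opposite, while H3.1K9M replicate 1 is lowest for both genes of the Brca1 and Nbr1 pair and of the Rad51c and Tex14 pair.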

How the data were processed

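Per the labels' protocols, mRNA was captured from Trizol-extracted RNA; both NEBNext Ultra and TruSeq v2 kits are named, and the sequencer was a HiSeq X-10. For each symbol the authors deposited an FPKM value, a unit inferred from the values. TopHat2 2.0.13, Cuffdiff 2.2.1 and mm10 are named in the submitters' processing notes. The sources used here give neither their settings, the annotation and the strand setting nor any scaling between libraries. Values were used as deposited. The test was limma 3.58.1 in R 4.3.3 on log2(FPKM + 1), over all 12 libraries with 1 mean per group and an intensity trend, two-sided, with Benjamini-Hochberg adjustment. It covered the 13109 genes that reached 1 FPKM in 2 or more libraries, the 9 members included. This scale understates changes of low genes. Steps between low values gave the approximate depth: 64.1% to 69.9% of them were whole to within 0.1, where chance gives 20%.

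Groups came from the sample titles. The members, the gene lists and the tests were chosen with earlier results of these data known. All members are named, plus up to 4 other homologous recombination genes with the smallest p among those that passed, otherwise 2, and the 5 genes most like the members. Genes of other lists, Dna2, Rtel1 and the neighbours were chosen after values were seen. Correlation p-values are from 100000 permutations (scipy 1.17.1). The fit was tested on simulated data. Alternatives were a pseudocount of 0.1, no filter or 5 FPKM, quantile and median-of-ratios scaling, each arm alone, a replicate block and leaving out each library.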

Additional observations from a re-analysis of the deposited data

Results flagged for a closer look

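Lines that share a control were compared with each other directly. Among the 9 members and 43 other homologous recombination genes, 5 differences were past the threshold (limma, Benjamini-Hochberg). Of all tested genes, 8.24% passed between H3.1K36M and H3.1K9M and 6.56% between shSuv39h1 and shSuv39h2. Between H3.1K36M and H3.1K9M, Rbbp8 had a log2 difference of 0.38 (higher in H3.1K36M in 2 of 2 libraries, adjusted p = 0.0390) and Brip1 of 0.58 (2 of 2 libraries, adjusted p = 0.0117). Between shSuv39h1 and shSuv39h2, Zswim7 had a log2 difference of 0.63 (adjusted p = 0.0143) and Brip1 of 0.58 (adjusted p = 0.0168), both higher in shSuv39h1, and Mus81 of -0.55 (adjusted p = 0.0170). In all 5 the libraries of the lines did not overlap. Of all tested genes, 31.5% lay wholly higher in H3.1K36M than in H3.1K9M. Between the hairpins, 30.0% lay wholly higher and 28.7% wholly lower in shSuv39h1. Of 11 alternative analyses, 4 kept the call of Rbbp8, 8 that of Brip1 between H3.1K36M and H3.1K9M, 8 that of Zswim7 and 7 each those of Brip1 and Mus81 between the hairpins. Leaving out a library, 0 to 1 of the 43 other homologous recombination genes were called between the hairpins.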

How the results depend on the processing

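Of 582 member values under an alternative, 532 kept their direction and their side of the threshold, 13 lost a call, 5 gained one and 32 changed sign. Rbbp8 in H3.1K36M against H3.1K9M (1 member called) was lost with no filter (limma adjusted p = 0.0545), quantile (0.0656) or median-of-ratios scaling (0.0582) and the arm alone (0.114), where 0 members were called. Rad54l in shSuv39h2 against shNC (1 member called) was lost with no filter (limma adjusted p = 0.0528), quantile scaling (0.0604) and the arm alone (0.0815), again with 0 called. The cause was not tested. No scaling moved the median of all genes by over 0.1. Genes called in H3.1K9M against H3.1WT numbered 41, and 12 with no filter, 27 at 5 FPKM and 2 in the arm alone. H3.1K36M against H3.1WT had 634, and 354 at 5 FPKM and 186 in the arm alone. H3.1K36M against H3.1K9M had 1080, and 663 and 510, and there 0 of the other homologous recombination genes passed in the arm alone. shSuv39h1 against shNC had 19, and 11 with a pseudocount of 0.1, 10 with the replicate block and 3 in the arm alone. The arm alone gave 866 of 1316 in shSuv39h2 against shNC and 348 of 860 in shSuv39h1 against shSuv39h2.

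Leaving out each library, members called ranged from 0 to 2 in H3.1K9M against H3.1WT, 0 to 3 in H3.1K36M against H3.1K9M and 0 to 2 in shSuv39h2 against shNC, and stayed at 0 in the other 3 comparisons. Genes called ranged from 2 to 695, 107 to 200 (H3.1K36M against H3.1WT), 267 to 1424 (H3.1K36M against H3.1K9M), 0 to 18 (shSuv39h1 against shNC), 360 to 1567 (shSuv39h2 against shNC) and 76 to 221 (shSuv39h1 against shSuv39h2). Other homologous recombination genes called ranged from 0 to 5 in H3.1K9M against H3.1WT, 0 to 6 in H3.1K36M against H3.1K9M, 1 to 10 in shSuv39h2 against shNC and 0 to 1 in shSuv39h1 against shSuv39h2. The group with 1 library left is assumed to vary like the others.

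Some log2 differences changed sign. In H3.1K36M against H3.1WT, quantile scaling gave -0.040 (Brca2), -0.059 (Palb2), -0.043 (Xrcc3) and -0.0076 (Rad54l), and median-of-ratios scaling -0.0095 (Palb2). In shSuv39h1 against shNC, Palb2 was at -0.017 under quantile and -0.015 under median-of-ratios scaling, and in shSuv39h1 against shSuv39h2 Rbbp8 was at -0.0026 under median-of-ratios scaling. Leaving out a library, the ranges that crossed 0 in H3.1K9M against H3.1WT were -0.090 to 0.00050 (Rad51d), -0.37 to 0.034 (Brca1), -0.23 to 0.030 (Brca2), -0.32 to 0.20 (Palb2) and -0.16 to 0.018 (Xrcc3). In H3.1K36M against H3.1WT they were -0.069 to 0.065 (Rad51c), -0.10 to 0.041 (Brca1), -0.066 to 0.11 (Brca2), -0.064 to 0.085 (Palb2) and -0.073 to 0.12 (Xrcc3). In H3.1K36M against H3.1K9M they were -0.062 to 0.029 (Rad51d), -0.064 to 0.34 (Brca1), -0.0061 to 0.25 (Brca2), -0.19 to 0.33 (Palb2) and -0.0018 to 0.19 (Xrcc3). Palb2 ran from -0.093 to 0.15 in shSuv39h1 and -0.19 to 0.053 in shSuv39h2 against shNC, and Rbbp8 from -0.033 to 0.078 in shSuv39h1 against shSuv39h2.

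The labels do not say what the replicate numbers mark. Same-numbered libraries of 2 groups had deviations with r from -0.38 to 0.52 over 15 pairs of groups, 4 of them over 0.1, so the numbers were not read as pairs. With the replicate block, 1 member was still called in H3.1K36M against H3.1K9M and 1 in shSuv39h2 against shNC. Counting error for the members was about 1.48% to 6.5% of a value, by the approximate depth and the longest transcript of each gene. It would be larger for shorter transcripts, and groups of 2 libraries limit the precision.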
